A study of Mus musculus with 4 samples.

Results

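The cytosolic ribosomal protein genes of mouse embryonic stem cells (ESCs) were examined in 4 RNA-seq libraries that test the m6A reader YTHDF2. The genes were taken by symbol, as Rpl, Rps or Rplp followed by a number and an optional ending a, x, l, l1 or al, together with *Rpsa*. Pseudogenes and the *Rps6k* kinases were left out. This gave 87 of the 50559 genes in the deposited table, of which 54 encode proteins of the large subunit (Rpl and Rplp) and 33 proteins of the small subunit (Rps). A mean of at least 10 reads over the 4 libraries was reached by 85 of them and by 18586 genes in all, which are called tested genes below. *Rpl32l* and *Rps12l1* were below that mean, with at most 17 and 12 reads in a library.

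Each cytosolic ribosome holds 1 large and 1 small subunit, and each subunit is built from ribosomal RNA and a set of proteins, most of which are needed in equal numbers. The mRNAs of these proteins are short and abundant, and many begin with a run of pyrimidines, the 5′ terminal oligopyrimidine (TOP) tract, through which mTOR and LARP1 control their translation and stability. A few ribosomal proteins have paralogs, second genes that are often expressed in particular tissues, such as *Rpl3l* in striated muscle and *Rpl10l* and *Rpl39l* in male germ cells.

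All cells were E14 mouse ESCs grown on gelatin in medium with serum replacement and leukemia inhibitory factor, and per the methods of the study they carried a tdTomato reporter driven by the MERVL promoter and a stably integrated lentiviral hairpin. A scrambled hairpin with empty vector gave the group shScram+EV (the control library below). In the other groups the hairpin was directed at *Ythdf2*, and the cells also received empty vector (shYthdf2+EV, the knockdown library), wild-type YTHDF2 (shYthdf2+DF2WT, called DF2WT) or YTHDF2 with a mutation against m6A binding (shYthdf2+DF2Mut, called DF2Mut). Which *Ythdf2* hairpin was used is not given in the labels. There was 1 library per group, so no difference below has a replicate check, no test was possible, and a difference between conditions and a difference between single libraries cannot be told apart. Total counts were 31533129 to 35742335 reads. Genes with a read numbered 26123 to 26700. *Ythdf2* itself had 2806 reads in the control and 662 in the knockdown library, and 7661 with DF2WT against 6925 with DF2Mut, as the labels imply. By CPM scaled with the TMM method (scaled CPM), 6 ESC markers summed to between 3995 and 4491 scaled CPM, whereas 5 fibroblast markers summed to 10.9 to 16.5, 4 neural markers to 7.88 to 10.6, 5 primitive endoderm markers to 10 to 16.1, lowest in DF2WT, and 5 germ cell markers to 150 to 169, with 2 of the germ cell markers at no more than 3 reads in each library. Fewer cells expressing a gene and less RNA per cell cannot be told apart in bulk libraries.

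Start sites are shown first because the pyrimidine tract is the feature by which these mRNAs are usually recognized. The RefSeq promoter table held 64 of the 87 genes, in build GRCm38.p6, whereas the counts were made on mm39. The lines below give 30 bases of the transcribed strand, 5′ to 3′, in which base 16 is the annotated first base of the transcript, and capitals mark the longest run of at least 4 C or T that comes within 3 bases of it.
Rpl27a (chr7:109519180-109519209, plus strand): gacttcgtgagCTCCTCCCTTTTCCCTTTC
Rpl35 (chr2:39005117-39005146, minus strand): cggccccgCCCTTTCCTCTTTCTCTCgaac
Rpl15 (chr14:18270972-18271001, minus strand): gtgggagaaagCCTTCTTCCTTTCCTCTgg
Rps6 (chr4:86857353-86857382, minus strand): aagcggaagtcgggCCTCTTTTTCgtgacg
Rplp2 (chr7:141447636-141447665, plus strand): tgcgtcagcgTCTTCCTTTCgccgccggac
Rpl38 (chr11:114668565-114668594, plus strand): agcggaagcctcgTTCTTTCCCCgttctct
Rpl22l1 (chr3:28805493-28805522, plus strand): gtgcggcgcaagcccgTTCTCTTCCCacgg
Rpl4 (chr9:64173372-64173401, plus strand): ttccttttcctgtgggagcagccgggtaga
Rpl5 (chr5:107900513-107900542, plus strand): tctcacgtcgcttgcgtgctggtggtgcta
Rpl41 (chr10:128549154-128549183, minus strand): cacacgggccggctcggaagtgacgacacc

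The first 7 windows hold such a run and the last 3 do not. Whether a run is found depends on the annotated start, and whether these cells use that start was not tested. The *Rpl4* window, for example, opens with a pyrimidine run farther upstream. A window without a marked run therefore does not show that the mRNA lacks a TOP tract. *Rpl27a*, *Rpl35* and *Rpl15* are shown for their long runs, and *Rpl4*, *Rpl5* and *Rpl41* because they lie at the ends of the orders described below. Counting a gene once if any of its annotated starts matched, a C at the first base followed by at least 4 pyrimidines was found in 14 of the 64 genes (21.9%) and in 3.01% of all 27025 genes with a promoter in the table. A C followed by at least 6 pyrimidines, anywhere within 10 bases of the start, was found in 48.4% of the ribosomal protein genes and 14.1% of all genes. The letters CTTTCC on the transcript strand within 20 bases of the start were found in 17.2% and 2.66%.

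Of the letters sought in the 300 bases of promoter on either strand, CCGGAAG, a core of the sites bound by ETS factors such as GABPA, was present in 39.1% of the ribosomal protein genes and 9.93% of all genes. AAGATGG, a core of the YY1 site, was present in 15.6% and 7.28%, GGGCGG, the core of the SP1 site, in 60.9% and 38.2%, and TATAAA in 12.5% and 15.7%. GGACT, 1 of the letter strings that m6A methylation prefers, had a median of 0.779 occurrences per kilobase of transcript in the tested ribosomal protein genes and 1.03 in the other tested genes, and was absent from 35 of 85 ribosomal protein transcripts (41.2%) and from 12% of the others. A match describes the letters only and does not show binding or methylation.

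The ribosomal protein genes were compact and abundantly expressed. Their summed exon length in the table had a median of 860 bases (390 to 5136) against 3402 in the other tested genes, and their GC content a median of 51.6% against 50.2%. Levels between genes are given as FPKM, computed from the deposited counts, the total count and the summed exon length. The median over the 85 genes was 389 FPKM in the control library, 457 in the knockdown library, 524 in DF2WT and 334 in DF2Mut, while the median over all tested genes was 3.23, 3.33, 3.37 and 3.31.

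**Figure D1:**
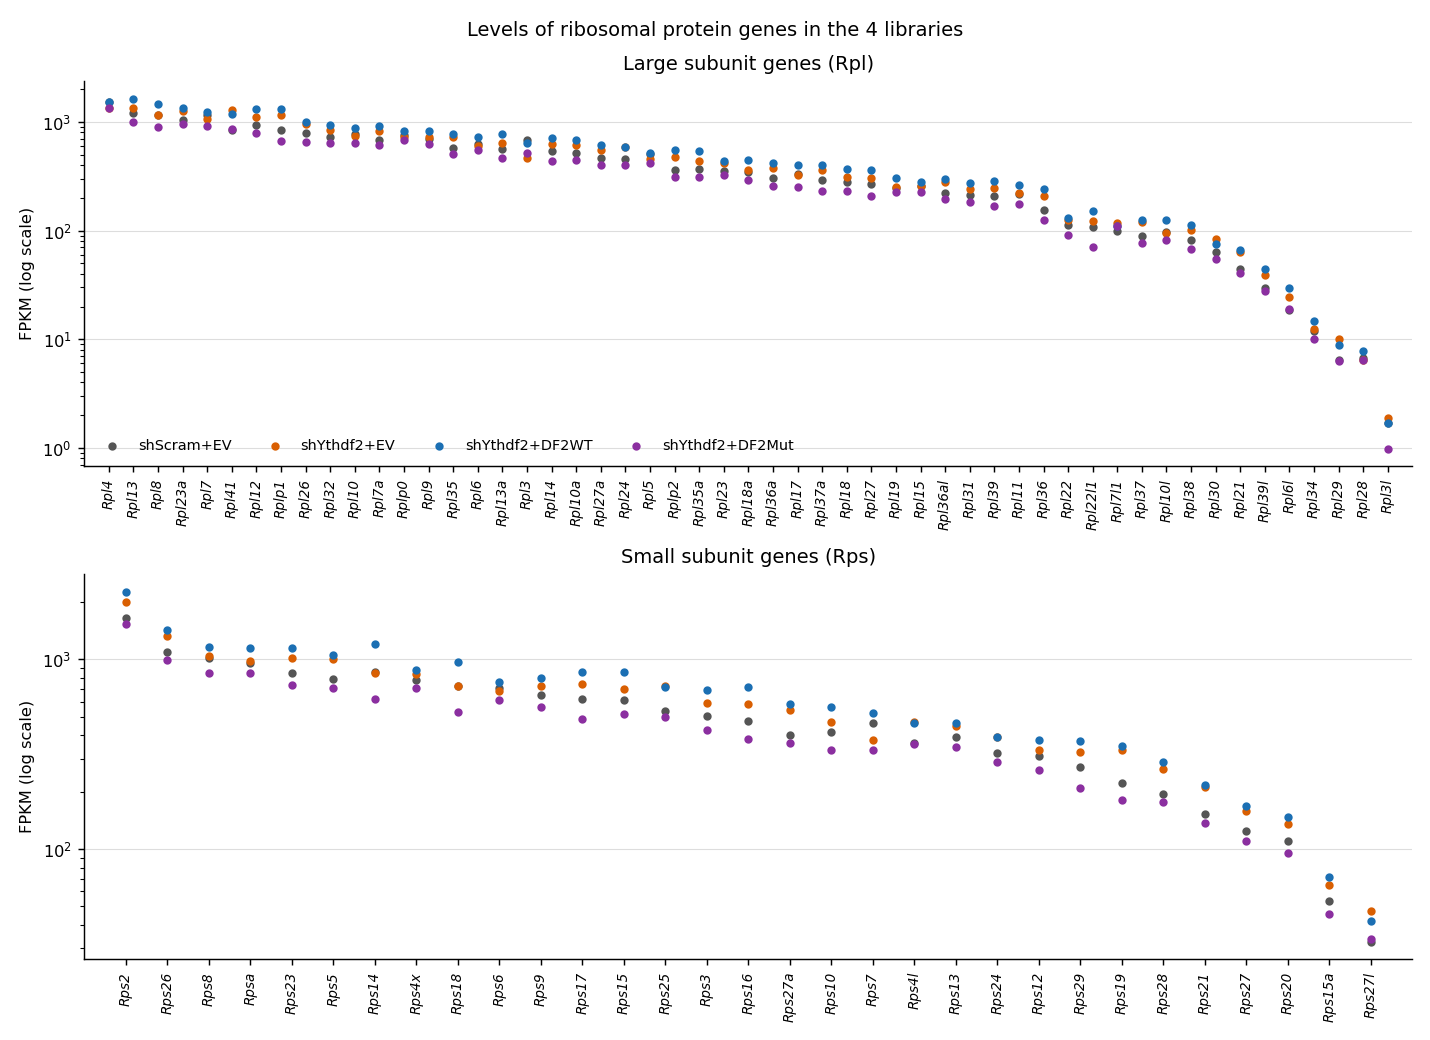
FPKM (log scale) of the tested ribosomal protein genes in the 4 libraries (1 gene is not drawn), 1 point per library, ordered by mean FPKM within the large subunit (top) and the small subunit (bottom). The middle 50% of genes in the control library lie between 196 and 709 FPKM, and the purple points of DF2Mut are mostly the lowest and the blue points of DF2WT mostly the highest, as for 82 and 71 of all 85 genes by scaled CPM.

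The 3 highest levels belonged to *Rps2*, *Rpl4* and *Rpl13*. *Rps2*, at the entrance of the mRNA channel of the small subunit, had 1654, 2009.9, 2276 and 1541 FPKM in the control library, the knockdown library, DF2WT and DF2Mut, the order of libraries used throughout. *Rpl4*, which lines the peptide exit tunnel, had 1519, 1355, 1538 and 1349 FPKM. *Rpl13* had 1199, 1343, 1641 and 1007 FPKM. *Rpl4* differed by less across the libraries than the other 2, and *Rps2* and *Rpl13* were highest in DF2WT and lowest in DF2Mut.

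The lowest levels belonged to *Rpl3l*, *Rpl28* and *Rpl29*. The muscle paralog *Rpl3l* had 1.71, 1.87, 1.69 and 0.984 FPKM. *Rpl28* had 6.72, 6.49, 7.8 and 6.46 FPKM and *Rpl29* 6.47, 10.1, 8.93 and 6.24 FPKM. Reads that overlapped more than 1 gene were not counted, and 89.3% of the exon bases of *Rpl28* lie under another annotated gene. Exon bases shared with another gene were found in 19 members, among them *Rpl5* (47.6%), *Rpsa* (34.2%) and *Rpl31* (33.3%). Reads that matched several places were not counted either. Of the 83 tested genes with an mRNA in GENCODE vM21, 37 had fewer than 50% of their 100-base windows in no other annotated gene, down to 1.63% in *Rps27*, and levels of those genes are lower bounds.

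As a family, the 87 genes took 3.81% of all counts in the control library (95% Wilson interval 3.8 to 3.81), 4.15% in the knockdown library (4.14 to 4.15), 4.72% in DF2WT (4.71 to 4.73) and 3.26% in DF2Mut (3.26 to 3.27). With mitochondrial genes, which took 6.14% to 8.44% of the counts, left out of the total, the shares were 4.16%, 4.45%, 5.04% and 3.48%, in the same order. The small subunit genes took 1.55%, 1.76%, 1.98% and 1.34% and the large subunit genes 2.26%, 2.39%, 2.74% and 1.93%, so both subunits showed the same order of libraries. These intervals cover counting error only, since amplified reads are not independent molecules.

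By scaled CPM, DF2WT was the highest library for 71 of the 85 genes and DF2Mut the lowest for 82. For all tested genes these shares were 26.4% and 25.9%. The full order DF2WT, the knockdown library, the control library, DF2Mut was seen in 54 genes (5.35% of all tested genes). The 3 genes whose lowest library was another one were *Rpl3*, lowest in the knockdown library, and the paralogs *Rpl7l1* and *Rps27l*, lowest in the control library. The summed ESC markers, at 4026, 4432, 4491 and 3995 scaled CPM, had the same order of libraries as the median FPKM of the family. Of the 6 markers, *Dppa5a*, with 641 exon bases, had a log2 ratio of DF2Mut to DF2WT of -0.82, *Nanog* and *Zfp42* had 0.15 and 0.26, and the median was -0.16, or 0.01 when corrected for GC content and exon length. The share of mitochondrial genes was highest in the control library. The part of the markers and of this share in the results was not tested.

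**Figure D2:**
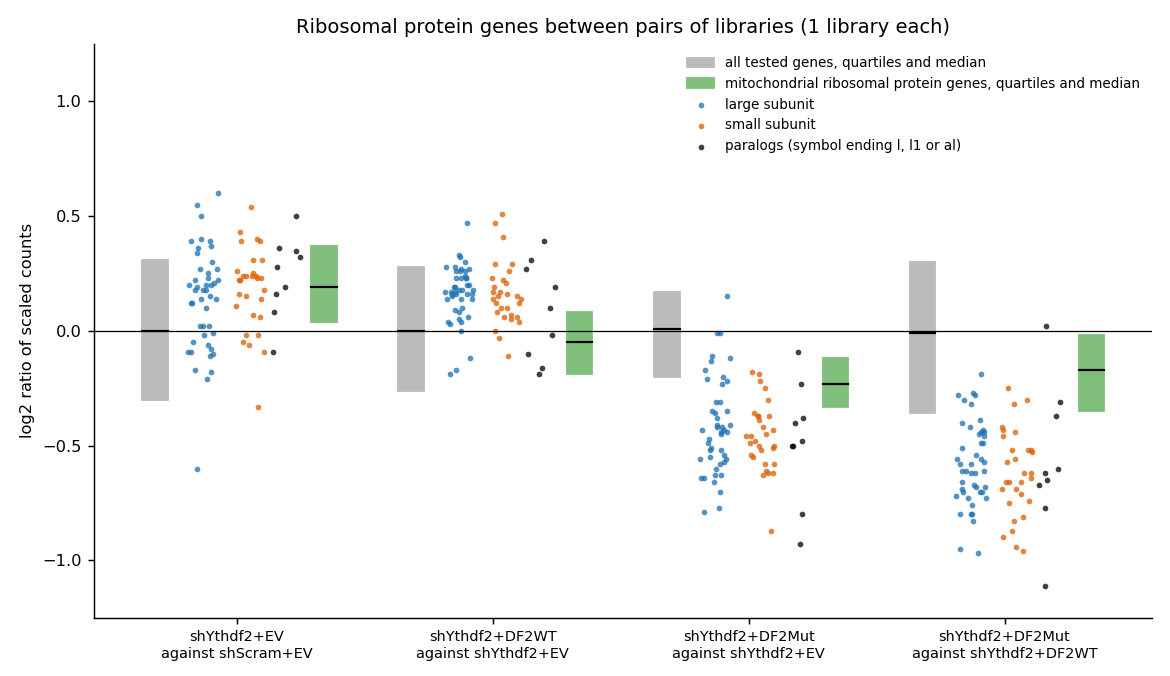
Log2 ratios of scaled counts in the 4 comparisons, with 1 point per ribosomal protein gene (blue, large subunit; orange, small subunit; black, paralogs) beside the quartiles and median of all tested genes (grey) and of the 75 mitochondrial ribosomal protein genes (green). The points spread around medians of 0.19, 0.16, -0.45 and -0.61 from left to right.

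Knockdown of *Ythdf2* was compared first. The median log2 ratio of the knockdown library to the control library was 0.19 (quartiles 0.02 to 0.28) over the 85 ribosomal protein genes, of which 65 were higher and 20 lower (49.8% and 50.2% of all tested genes), and 0.00 over all tested genes. It was 0.18 for the 46 large subunit genes and 0.22 for the 30 small subunit genes, paralogs left out. A log2 ratio of at least 0.32 in size, the threshold used for all counts, was reached upward by 18 ribosomal protein genes (24.1% of all tested genes were that much higher) and downward by 2 (23.4% of all tested genes). The share of the family past this threshold upward, 18 of 85, was thus near the background. In 60 genes the 95% counting interval lay above 0 and in 14 below it (23.1% and 22.9% of all tested genes). Deeper counts give narrower intervals, and the median mean count was 13344 reads for the family and 377 for the other tested genes. The same limit holds for such counts of intervals below.

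The genes with the highest ratios were *Rpl29*, *Rpl41* and *Rps19*. *Rpl41*, which encodes the smallest ribosomal protein, had 390, 570, 524 and 383 scaled CPM. Its log2 ratio in the knockdown was 0.55 (95% Clopper-Pearson interval on read pairs 0.50 to 0.59), and the knockdown library was its highest library. *Rps19*, the gene most often mutated in Diamond-Blackfan anemia, had 224, 326, 342 and 178 scaled CPM and a log2 ratio of 0.54 (0.48 to 0.60). *Rpl29*, with only 230 to 424 reads in a library, had the highest ratio, 0.60 (0.27 to 0.93).

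The 7 genes with the lowest ratios in the knockdown all had more exon bases than the family median. *Rpl3* (mm39 chromosome 15, 79961982 to 79967607), whose protein reaches the peptidyl transferase centre, had 1076, 712, 986 and 789 scaled CPM. Its log2 ratio was -0.60 (-0.63 to -0.56), the lowest of the family. *Rps7* on chromosome 12 had 454, 361, 498 and 316 scaled CPM and a log2 ratio of -0.33 (-0.38 to -0.28). *Rpl4* had 2487, 2151, 2432 and 2135 scaled CPM, and a log2 ratio of -0.21 (-0.23 to -0.19). *Rpl5*, *Rpl7*, *Rpl6* and *Rplp0* followed, at -0.18, -0.17, -0.11 and -0.10. Beyond these 7 the exon lengths were mixed. At -0.09, *Rpl28* and *Rpl10* had 496 and 795 exon bases, below the family median, and *Rps6* and *Rpl10l* 1394 and 1023, above it.

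*Rps7* lies on a chromosome that stood apart. The median log2 ratio of the knockdown library to the control library over 414 well-covered genes of chromosome 12 was -0.29, against 0.01 over other autosomes. The other members on chromosome 12 were *Rpl36al* at 0.28 (0.20 to 0.37), *Rps29* at 0.22 (0.13 to 0.31) and *Rpl10l* at -0.09 (-0.19 to 0.01), and the part of the chromosome in these values was not tested. For DF2WT against the knockdown library, chromosome 12 and the other autosomes had medians of 0.19 and -0.01. For DF2Mut these were 0.04 and 0.02 against the knockdown library, and -0.16 and 0.01 against DF2WT.

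**Figure D3:**
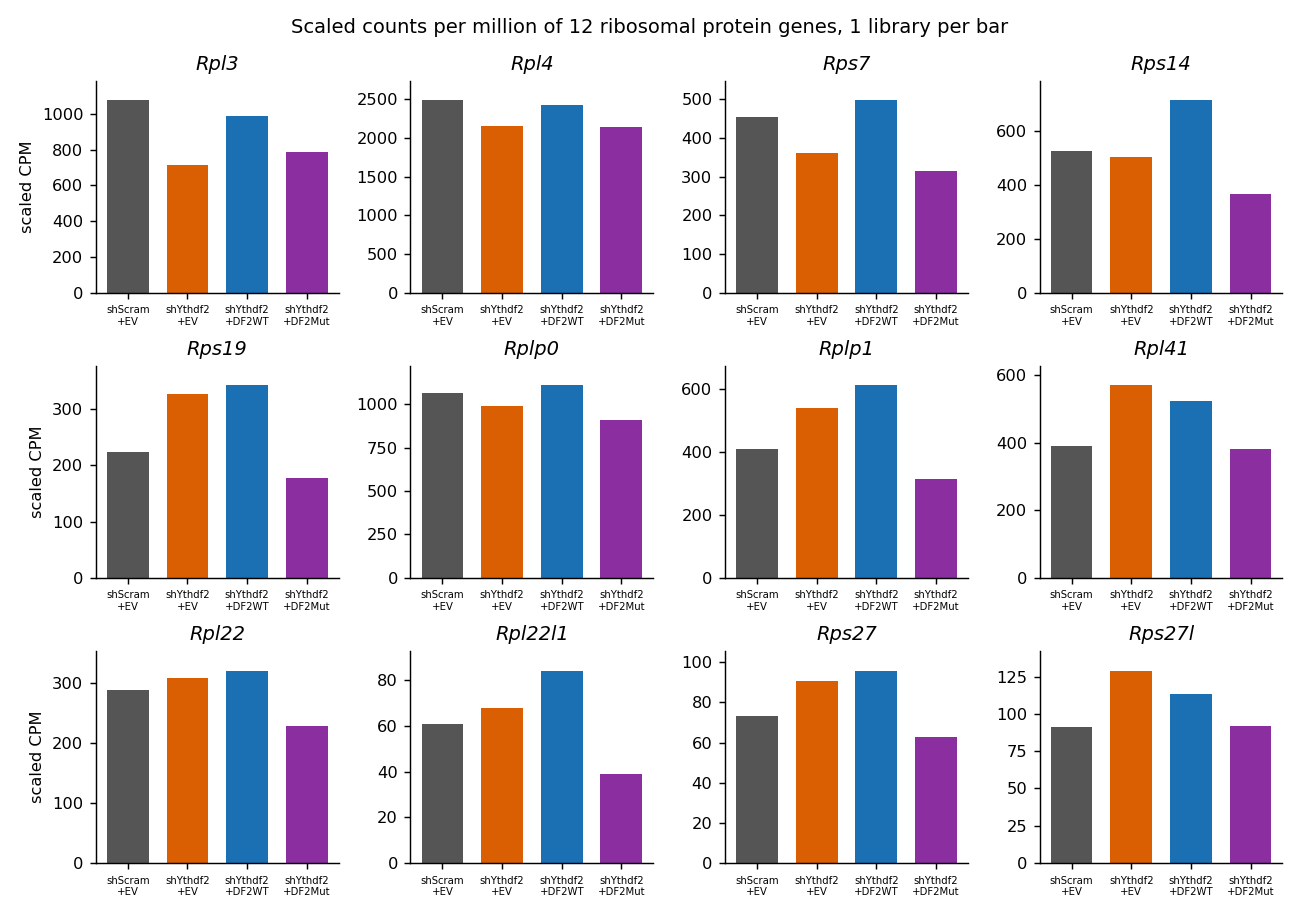
Scaled CPM (linear axis from 0, its range set per gene) of 12 ribosomal protein genes, 1 bar per library and no error bar because each group was 1 library. *Rpl3* and *Rps7* are lower in the knockdown library than in the control library, *Rps19*, *Rplp1* and *Rpl41* are higher, and the bar of DF2Mut is below that of DF2WT in all 12.

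Addition of wild-type YTHDF2 to the knockdown was compared next. The median log2 ratio of DF2WT to the knockdown library was 0.16 (quartiles 0.08 to 0.23), with 74 genes higher and 11 lower (50.4% and 49.6% of all tested genes), and 0.00 over all tested genes. The threshold of 0.32 was reached upward by 6 genes (22.3% of all tested genes) and downward by none (21% of all tested genes). The counting interval lay above 0 in 65 genes and below it in 4 (21.1% and 21.5% of all tested genes). Most of the family was thus slightly higher with the wild-type protein, by less than that threshold.

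The highest ratio was that of *Rps14*, a protein of the platform of the small subunit. It had 525, 502, 714 and 366 scaled CPM, and a log2 ratio of 0.51 (0.47 to 0.55). *Rpl3* and *Rps7*, the lowest genes of the knockdown comparison, both had log2 ratios of 0.47 here (0.44 to 0.50 and 0.42 to 0.51). With the wild-type protein *Rpl3* stood at 986 scaled CPM, below its 1076 in the control library, and *Rps7* at 498, above its 454. Both comparisons share the knockdown library. Chromosome 12, where *Rps7* lies, had a median of 0.19 in this comparison, and its part in the *Rps7* ratio was not tested. The lowest ratios were *Rpl29* at -0.19 (-0.49 to 0.11), *Rps27l* at -0.19 (-0.28 to -0.10) and *Rpl30* at -0.17 (-0.31 to -0.03).

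With the m6A-binding mutant, ribosomal protein genes were lower. The median log2 ratio of DF2Mut to the knockdown library was -0.45 (quartiles -0.56 to -0.35), which is 73% of the level in the knockdown library, and 84 of 85 genes had a negative ratio (48.8% of all tested genes, with 51.2% positive). Lower by the threshold or more were 65 genes (17.4% of all tested genes), and at least 1.5-fold lower 16 (8.78% of all tested genes). None was higher by the threshold (13.5% of all tested genes). The medians were -0.44 for the large subunit, -0.47 for the small subunit and -0.48 for the 9 tested paralogs, and 0.01 for all tested genes.

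The same held against the wild-type protein, a comparison that shares the DF2Mut library with the previous one. The median log2 ratio of DF2Mut to DF2WT was -0.61 (quartiles -0.70 to -0.45), or 65.3% of the level with the wild-type protein. Of 85 genes 84 had a negative ratio (51% of all tested genes, with 49% positive), 74 were lower by the threshold or more (27% of all tested genes), 46 at least 1.5-fold lower (14.9%) and 1, *Rpl22l1*, at least 2-fold lower (6.21%). None was higher by the threshold (23.6%). The counting interval lay below 0 in 82 genes (23.6% of all tested genes) and held 0 in 3 (9762 of the 18586 tested genes), among them *Rpl28* and *Rpl7l1*. The spread among members was small, with an SD of 0.20 over the 85 log2 ratios against 0.69 over all tested genes. The median mean count was 13344 reads for the family and 377 for the other tested genes.

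Among named structures, the P-stalk, which recruits the elongation factors, was uneven. Its acidic proteins are encoded by *Rplp1* (mm39 chromosome 9, 61820565 to 61821792), with 408, 538, 610 and 312 scaled CPM, and by *Rplp2*, with 168, 217, 248 and 139. Their log2 ratios of DF2Mut to DF2WT were -0.97 (-1.02 to -0.92) and -0.83 (-0.91 to -0.76). *Rplp0*, the base of the stalk, had 1065, 990, 1108 and 910 scaled CPM and a ratio of -0.28 (-0.31 to -0.25). *Rplp0* has a summed exon length of 1360 bases, *Rplp1* and *Rplp2* have 468 and 457.

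The 5S particle, in which *Rpl5* and *Rpl11* proteins bind 5S ribosomal RNA and, when free, the p53 regulator MDM2, differed less between its members. *Rpl5* had 1044, 919, 1029 and 850 scaled CPM and *Rpl11* 352, 350, 409 and 275. Their log2 ratios of DF2Mut to DF2WT were -0.28 (-0.31 to -0.24) and -0.58 (-0.63 to -0.52), and those of DF2Mut to the knockdown library -0.11 and -0.35.

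Of the other members with well-known roles, *Rps6*, the substrate of S6 kinase, had 1013, 949, 1049 and 840 scaled CPM and a ratio of DF2Mut to DF2WT of -0.32 (-0.35 to -0.29). *Rps27a*, which encodes a ribosomal protein fused to ubiquitin, had 337, 442, 475 and 295 scaled CPM and a ratio of -0.69 (-0.74 to -0.63). *Rps19* and *Rps14* were near the low end, at -0.94 (-1.01 to -0.88) and -0.96 (-1.01 to -0.92). *Rpl38*, *Rpl13a* and *Rpl10a* stood at -0.73, -0.73 and -0.61 and *Rps25* at -0.52. *Rpl4*, at -0.19 (-0.21 to -0.17), had the ratio nearest 0 after the paralog *Rpl7l1*. *Rpl3* was the only one of the 85 tested genes with a positive ratio of DF2Mut to the knockdown library, 0.15 (0.11 to 0.18), and its ratio of DF2Mut to DF2WT was -0.32 (-0.36 to -0.29).

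The paralogs were set beside their parent genes. For 7 pairs with a coding sequence in GENCODE vM21, the identity of the aligned coding bases ran from 54.4% (*Rpl7l1* and *Rpl7*) to 87.7% (*Rpl36al* and *Rpl36a*). *Rpl22l1* (67.5% identical to *Rpl22*) had 60.9, 67.8, 84.2 and 38.9 scaled CPM, and a log2 ratio of DF2Mut to DF2WT of -1.11, the lowest of the family, with a counting interval that ended at -0.98. *Rpl22* had 288, 309, 321 and 228 scaled CPM and a ratio of -0.49 (-0.56 to -0.43), so the intervals of the pair did not overlap. The counts of *Rpl22l1* were the lower of the pair in every library.

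*Rps27l*, a target of p53 that is 76.2% identical to *Rps27* in coding bases, had 91.4, 129, 113 and 91.5 scaled CPM. *Rps27* had 73.1, 90.9, 95.9 and 62.6 scaled CPM, and its ratio of DF2Mut to DF2WT was -0.62 (-0.73 to -0.50) against -0.31 (-0.41 to -0.21) for *Rps27l*. Only 1.63% of the windows of *Rps27* were in no other gene, so that the level of *Rps27* is a lower bound. *Rpl7l1*, with 268, 305, 285 and 288 scaled CPM, was the only one of the 85 tested genes with a positive ratio of DF2Mut to DF2WT, 0.02 (-0.04 to 0.07), while *Rpl7* had 1112, 986, 1133 and 842 and a ratio of -0.43 (-0.46 to -0.40). *Rpl7l1* was the least identical to its parent of the 7.

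The germ cell paralogs had reads in every library, and 100% of their windows were in no other annotated gene. *Rpl10l* had 102, 96.3, 127 and 82.2 scaled CPM, and *Rpl39l* 26.1, 33.1, 37.8 and 23.7. Their log2 ratios of DF2Mut to DF2WT were -0.62 (-0.72 to -0.52) and -0.67 (-0.86 to -0.49). *Rpl10* and *Rpl39*, the parents on chromosome X, stood at -0.44 (-0.49 to -0.40) and -0.76 (-0.86 to -0.65). *Rpl10l* lies on chromosome 12, whose median in this comparison was -0.16 against 0.01 over other autosomes. *Rpl36al* and *Rpl36a* were close, at -0.60 and -0.70. *Rps4l* had 350, 438, 431 and 333 scaled CPM and a ratio of -0.37 (-0.42 to -0.32), and *Rps4x* -0.30 (-0.33 to -0.27). *Rpl6l* stood at -0.65 (-0.86 to -0.43) and *Rpl6* at -0.40 (-0.43 to -0.37). *Rpl3l* had 57 to 123 reads in a library and a ratio of -0.77 (-1.48 to -0.08).

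Short exon length went with a lower DF2Mut ratio across all genes, members or not. Spearman's rho of the log2 ratio of DF2Mut to DF2WT was 0.25 with exon length over the 18586 tested genes, and -0.41 with GC content over the 16726 that had a transcript in GENCODE vM21. Over the 85 ribosomal protein genes it was 0.40 and -0.24. Over the members rho with exon length was 0.44 for DF2Mut against the knockdown library and -0.35 for the knockdown. These are descriptions across genes, which share their libraries and are not independent replicates.

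In classes of exon length, ribosomal protein genes were set beside other genes with a mean of at least 1000 reads. Under 600 bases, the median log2 ratio of DF2Mut to DF2WT was -0.69 for 25 ribosomal protein genes and -0.54 for 48 others, of which 95.8% had a negative ratio. From 600 to 1000 bases it was -0.65 for 28 ribosomal protein genes and -0.38 for 158 others. From 1000 to 2000 bases the medians were -0.57 for 25 and -0.13 for 820, and from 2000 bases upward -0.44 for 7 and 0.09 for 5210. The ribosomal protein genes were the lower in each class, and the gap to these other genes was narrowest among the shortest. Against the knockdown library, the medians of the shortest class in ribosomal protein and other genes were -0.54 and -0.48 for DF2Mut, and 0.15 and 0.05 for DF2WT. In the knockdown, the shortest other genes stood at 0.41 and the shortest ribosomal protein genes at 0.23. Other genes with a mean under 1000 reads had medians of DF2Mut to DF2WT of -0.29, -0.29, -0.20 and -0.01 from the shortest class to the longest. Beside them the gap was not narrowest among the shortest. Exon length is summed over all annotated exons, so a member with a short mRNA can fall in a long class. *Rpl22* had 2497 exon bases and a principal mRNA of 474, *Rps27l* 2748 and 499.

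**Figure D4:**
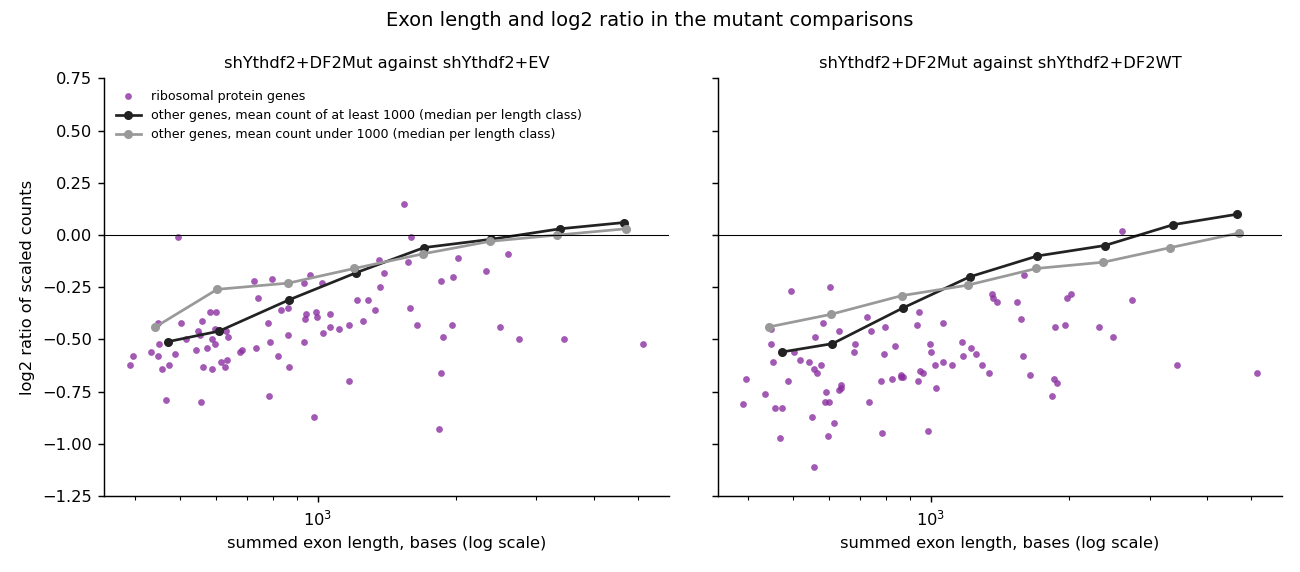
Log2 ratio of each tested ribosomal protein gene (purple points) against summed exon length (log scale), with the median of the other genes per length class at a mean count of at least 1000 (black) and under 1000 (grey), for DF2Mut against the knockdown library (left) and against DF2WT (right). The black line climbs from -0.51 to 0.06 on the left and from -0.56 to 0.10 on the right, and the ribosomal protein genes of 1000 to 2000 bases, with medians of -0.36 and -0.57, lie mostly below it.

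In classes of GC content, the medians of DF2Mut to DF2WT were -0.46, -0.60, -0.59 and -0.68 for ribosomal protein genes with under 45%, 45% to 50%, 50% to 55% and at least 55% GC. For other tested genes they were 0.25, 0.09, -0.09 and -0.27. The ribosomal protein genes varied little across these classes.

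When a local regression on GC content and exon length over all tested genes was subtracted, the medians of the family moved to 0.06 in the knockdown, 0.10 with the wild-type protein, -0.17 for DF2Mut against the knockdown library and -0.28 for DF2Mut against DF2WT. The numbers past the threshold in either direction (47.4%, 43.2%, 30.9% and 50.6% of all tested genes without correction) moved from 20, 6, 65 and 74 to 7, 5, 18 and 37. Shares of all tested genes after the correction were not counted, so the corrected numbers have no background beside them. After this correction 78 of 85 genes still had a negative ratio of DF2Mut to DF2WT, where the corrected median over all tested genes was 0.01. The 7 that did not included *Rpl28* at 0.23, *Rpl41* at 0.11, *Rps4l* at 0.12 and *Rpl30* at 0.06, while *Rpl22l1* stood at -0.97. In the knockdown 55 genes were positive and 30 negative after this correction, but 42 and 41, with a median of 0.00, when the GC content and length of 1 principal mRNA per gene were used. The share of a ratio that goes with length and GC content could come from the libraries or from the cells, which cannot be told apart with 1 library per group.

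**Figure D5:**
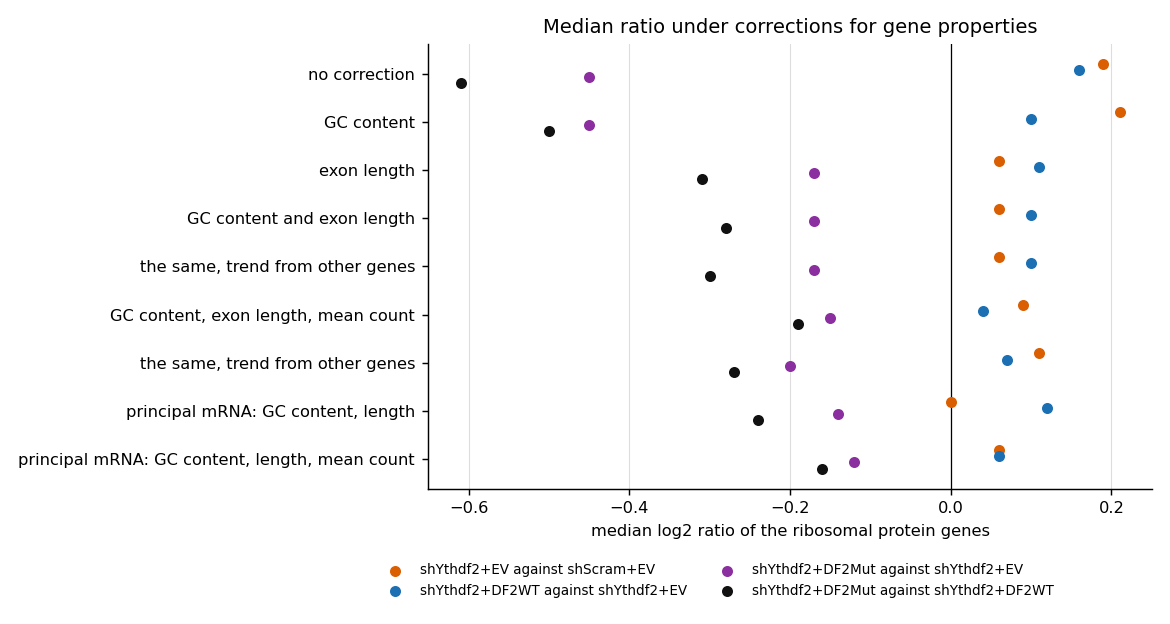
Median log2 ratio of the ribosomal protein genes in the 4 comparisons without correction (top row) and after subtraction of a local regression on the gene properties named at the left. Both mutant comparisons (purple and black) stay below 0 in each row, from -0.45 to -0.12 and from -0.61 to -0.16, while the knockdown (orange) ranges from 0.00 to 0.21.

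The median ratios were close in genes with and without the start-site letters. With DF2Mut against DF2WT, the median was -0.66 for 13 tested genes with a C and at least 4 pyrimidines at the start and -0.58 for 50 without. It was -0.58 for 25 genes with CCGGAAG in the promoter and -0.62 for 38 without, and -0.67 for 11 with CTTTCC near the start and -0.59 for 52 without. Spearman's rho with GGACT per kilobase was -0.12 over the members. The 46 genes with at least 50% of windows unique stood at -0.62 and the 37 with fewer at -0.58.

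Other genes of the translation machinery gave the following. Ribosomal proteins with other symbols stood with the family. *Fau* had 205, 262, 301 and 171 FPKM, *Rps3a1* 407, 512, 574 and 337, and *Rack1*, a scaffold on the head of the small subunit, 1050.4, 1027, 1242 and 852. Their log2 ratios of DF2Mut to DF2WT were -0.82, -0.77 and -0.54, all past the threshold.

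The 24 other transcripts listed as having a TOP tract, such as mRNAs of translation factors, had medians of -0.14 in the knockdown and 0.12 with the wild-type protein. The median was -0.05 for DF2Mut against the knockdown library. For DF2Mut against DF2WT it was -0.29, or -0.12 once GC content and exon length were corrected for. In that comparison 7 were lower by the threshold or more (27% of all tested genes) and none higher (23.6%). The share lower, 7 of 24, was thus near the background. *Eef1a1*, which brings aminoacyl-tRNA to the ribosome, had 5543, 4175, 5464 and 4456 FPKM. Its log2 ratio was -0.45 in the knockdown and 0.38 with the wild-type protein, an order of libraries like that of *Rpl3*. *Eif4b* stood at -0.44 and 0.39. The summed exon lengths of *Eef1a1* and *Eif4b* were 1790 and 3854 bases.

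Mitochondrial ribosomal protein genes, 75 in number, had a median of 0.19 in the knockdown, and 0.15 once GC content and exon length were corrected for, beside 0.19 and 0.06 for the cytosolic ones. The difference between the families was not tested. With the wild-type protein their median was -0.05, with 28 higher and 47 lower (50.4% and 49.6% of all tested genes). For DF2Mut against the knockdown library it was -0.23, or -0.10 with the same correction, against -0.45 and -0.17 for the cytosolic family. There 7 were higher and 68 lower (51.2% and 48.8% of all tested genes). Past the threshold, 22 were lower (17.4%) and none higher (13.5%). For DF2Mut against DF2WT the median was -0.17, and 0.03 with the same correction, against -0.28 for the cytosolic family. In that comparison 21 of the 75 were lower by the threshold or more (27% of all tested genes) and 3 higher (23.6%). The share lower was thus near the background.

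The 41 ribosome biogenesis factors, which process and assemble ribosomal RNA, had medians of 0.13, -0.04, -0.01 and 0.01 in the 4 comparisons. For DF2Mut against DF2WT 4 of them were past the threshold upward and 4 downward (23.6% and 27% of all tested genes), shares below the background. The 11 tested of 14 RNA polymerase I genes had 0.21, -0.06, -0.03 and -0.01. The 6 chaperones dedicated to ribosomal proteins had 0.13, -0.11, -0.07 and 0.06. The 17 regulators of ribosomal protein genes and mRNAs had 0.10, -0.06, 0.03 and 0.13. With DF2Mut against DF2WT 3 of the 17 were past the threshold upward and none downward (23.6% and 27% of all tested genes), shares below the background. Of these regulators, *Larp1* had 45.8, 46.8, 46.5 and 47.8 FPKM, *Mtor* 14, 12.4, 15.3 and 13.3, and *Myc* 3.68, 10, 5.78 and 10.1, a log2 ratio of 1.40 in the knockdown, -0.80 with the wild-type protein and 0.01 for DF2Mut against the knockdown library.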

How the data were processed

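Poly(A)+ RNA of 4 E14 ESC samples was sequenced as paired 150-base reads from strand-marked libraries. The deposited file holds whole-number counts per gene that the authors made with featureCounts 2.0.3, per the file headers over exons of the mm39 RefSeq annotation, ignoring strand, counting reads rather than pairs and leaving out reads with several matches or genes. The processing notes also name fastp 0.19.4, HISAT2 2.2.1, DESeq2 1.40.2 and build mm10, which the header contradicts. The other deposited column used, exon length, served for FPKM. The study describes replicates, but the labels give 1 library per group.

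Genes with a mean of at least 10 reads were tested for size of difference only. Counts were scaled with TMM factors of edgeR 4.0.16 (0.976, 1.01, 1.01 and 1.01) in R 4.3.3 with a prior count of 0.5. Genes past a log2 ratio of 0.32 in size were counted, and those past 1.5-fold and 2-fold beside them. Intervals were 95% Clopper-Pearson on read pairs, taken as 2 reads each, and Wilson for shares. They cover counting error only, as amplified reads are not independent molecules, and 3 reads corresponded to 0.0839 to 0.0951 CPM. GC content came from the longest coding GENCODE vM21 transcript, and corrections used a local linear regression with a span of 0.3. Coding identity replaced a protein comparison that had been planned. Python 3.11.15, pandas 2.3.3, SciPy 1.17.1, Biopython 1.88 and, for size factors, DESeq2 1.42.0 were used. The scripts were tested on simulated data.

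The members and lists were chosen with earlier results of these data known. Genes named were every paralog and its parent, the 3 highest and 3 lowest ratios in each comparison among genes with a mean of at least 50 reads, the 3 highest and 3 lowest mean FPKM, members on chromosome 12 and members with well-known roles. *Rpl6*, *Rpl7*, *Rpl35*, *Rpl15* and *Rpl27a* were also named where they illustrate a value, as were genes from the lists. Some genes are counted in the totals but not reported by name here. Alternatives were other scalings, filters, prior counts and corrections. Of the corrections, 5 were chosen after seeing the data, as was the restriction to genes with mostly unique windows.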

Additional observations from a re-analysis of the deposited data

How the results depend on the processing

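With 1 library per group no replicate could be left out. No paired analysis was possible because each group was 1 library and no test was made. The medians and the numbers of genes past a log2 ratio of 0.32 (20, 6, 65 and 74 in the order knockdown, DF2WT, DF2Mut against the knockdown library, DF2Mut against DF2WT) stayed close under DESeq2 size factors, total counts, total counts without mitochondrial genes, upper-quartile scaling, a prior count of 5, log2(FPKM + 0.01), filters at a mean of 1 or 50 reads, and without paralogs or chromosome 12 genes. Corrections for gene properties moved them. In the same order, the medians were 0.06, 0.11, -0.17 and -0.31 with exon length alone, 0.06, 0.10, -0.17 and -0.28 with GC content and exon length, and 0.06, 0.10, -0.17 and -0.30 with that trend fitted on other genes. GC content alone moved DF2WT to 0.10 and DF2Mut against DF2WT to -0.50. With mean count added the medians were 0.09, 0.04, -0.15 and -0.19, or 0.11, 0.07, -0.20 and -0.27 with the trend of other genes. With GC content and length of 1 principal mRNA per gene, knockdown and both mutant medians were 0.00, -0.14 and -0.24, and with mean count all 4 were 0.06, 0.06, -0.12 and -0.16. For knockdown, DF2Mut against the knockdown library and DF2Mut against DF2WT, the numbers of genes apart were 7, 16 and 38 with exon length alone, 7, 18 and 37 with GC content and exon length, 7, 18 and 38 with that trend from other genes, 7, 14 and 22 with mean count added, 8, 18 and 34 with that trend from other genes, 5, 14 and 32 with the principal mRNA, and 5, 12 and 25 with mean count as well. For DF2WT the number lay between 5 and 9 under the corrections for GC content, length and mean count, but its direction went from 6 higher and 0 lower to 3 higher and 4 lower with GC content, exon length and mean count. Restricted to the 46 genes with at least 50% unique windows the numbers were 10, 3, 36 and 39, with fewer genes counted. The cause of these shifts was not tested.

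Of the named genes that were past 0.32 without correction, the DF2Mut to DF2WT ratio turned positive for *Rpl41* (0.11, 0.04, 0.21, 0.09, 0.10, 0.11 and 0.19 under the corrections other than GC content alone), *Rps4l* (0.12, 0.18, 0.11 and 0.11) and *Rpl30* (0.06, 0.08, 0.04 and 0.03 under those with exon length and GC content), *Rpl29* (0.02 and 0.01 with the principal mRNA) and *Rpl32* (0.00 with mean count). Among such genes the ratio of DF2Mut to the knockdown library turned positive for *Rps12* (0.02 and 0.03 with the principal mRNA). Genes nearer 0 also changed sign. With GC content and exon length, *Rpl28* went from -0.27 to 0.23 for DF2Mut to DF2WT, and for DF2Mut to the knockdown library *Rpl28*, *Rpl4*, *Rpl10*, *Rplp0* and *Rps7* reached 0.37, 0.06, 0.04, 0.03 and 0.02. Depth limited *Rpl3l*, *Rpl28*, *Rpl29* and the untested *Rpl32l* and *Rps12l1*.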

Other observations

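Rows with a symbol of the form used for ribosomal protein pseudogenes were outside the family as chosen. There were 321 such rows, 96 of them with a mean of at least 10 reads, and they took 0.256%, 0.256%, 0.32% and 0.202% of the counts of the control, knockdown, DF2WT and DF2Mut libraries. Their median log2 ratios were 0.15 in the knockdown (56 higher, 40 lower), 0.19 with DF2WT (68 and 28), -0.43 for DF2Mut against the knockdown library (15 and 81) and -0.61 for DF2Mut against DF2WT (11 and 85), next to 0.19, 0.16, -0.45 and -0.61 for the genes themselves. Whether reads of the parent mRNAs contribute to these rows was not tested.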
